A study of Mus musculus with 30 samples.

Results

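The genes described here control the first step of protein synthesis in MEL cells, a mouse erythroleukemia line that makes hemoglobin when it is grown in DMSO. They are the 4 kinases of the initiation factor eIF2 (*Eif2ak1*, *Eif2ak2*, *Eif2ak3* and *Eif2ak4*), 2 subunits of eIF2 itself (*Eif2s1* and *Eif2s2*), the 2 subunits that direct protein phosphatase 1 to eIF2 (*Ppp1r15a* and *Ppp1r15b*) and the translation repressor *Eif4ebp1*. They were chosen by name, as 9 of 54532 genes in the count table, by a rule that uses no measured value, with earlier results of these data known. Transcripts were counted by RNA-seq in 30 libraries, 5 in each of 6 groups. WT cells (the DS19 line) and Abcb10-null cells were taken untreated at day 0 and, in medium with 1.5% DMSO, at day 2 and at day 5. *Abcb10* encodes a mitochondrial ATP-binding cassette transporter of the inner membrane. The Abcb10-null cells came from 1 CRISPR/Cas9 clone, made with a lentivirus aimed at the first exon of the gene. The line has no second clone among these libraries, so that the genotype and anything particular to that clone cannot be told apart. The sources used here do not settle whether the sequenced WT cells carried a control vector. An effect of the lentivirus therefore cannot be told apart from the genotype either. The labels call the 5 libraries of a group biological replicates, and no source used here says whether they were separate cultures started on separate days.

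eIF2 carries the initiator tRNA to the ribosome. When a kinase puts a phosphate on its alpha subunit, the factor jams its own exchange factor, eIF2B, and most translation slows, while a few mRNAs such as *Atf4* are translated better. Each kinase answers to its own signal: HRI, the product of *Eif2ak1*, to heme shortage and to stress passed on from mitochondria, PKR (*Eif2ak2*) to double-stranded RNA, PERK (*Eif2ak3*) to unfolded protein in the endoplasmic reticulum and GCN2 (*Eif2ak4*) to uncharged tRNA in amino acid shortage. In erythroid cells HRI is best known for matching globin synthesis to the heme at hand. The phosphatase subunits GADD34 (*Ppp1r15a*, induced in stress) and CReP (*Ppp1r15b*, constitutive) undo the phosphorylation, and 4E-BP1 (*Eif4ebp1*) is a separate brake that binds the cap-binding protein eIF4E until mTORC1 phosphorylates it. Only mRNA was measured, so that neither the phosphorylation of eIF2 nor that of 4E-BP1 is known from these data.

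The residue on which the 4 kinases converge is serine 51 of the alpha subunit, encoded by *Eif2s1*. It is residue 52 when the first methionine is counted, and its codon (capitals) lies in exon 2 of the annotated transcript at chr12:78866680-78866682 on the plus strand of GRCm38. The stretch below is bases 133 to 177 of the coding sequence.
Eif2s1 kinase site: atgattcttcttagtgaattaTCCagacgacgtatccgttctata

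RefSeq promoter windows of GRCm38.p6, which run from 250 bases before to 50 bases after a gene's start, were at hand for 7 of the 9 genes, with 2 windows for *Eif2ak4*. They were searched on both strands for 4 motifs: the C/EBP-ATF response element bound by ATF4 (TGATGNAA, found in 3.97% of all 32817 windows), the interferon-stimulated response element bound by factors of the interferon response (GAAANNGAAA, 3.43%), the GATA site of erythroid cells (AGATAA, 11.2%) and the cyclic AMP response element (TGACGTCA, 1.79%), a motif added after the *Ppp1r15a* window was seen. The windows of *Eif2ak2*, *Eif2s1* and *Ppp1r15a* held a match and are shown because the interferon and ATF4 lists described below were read beside these genes. Capitals mark the matches, which did not overlap each other. *Eif2ak2* (chr17:78882523-78882822, minus strand) held the interferon motif at position 19, counted from 1 at the start of the gene. *Eif2s1* (chr12:78861822-78862121, plus strand) held it at position -212, and *Ppp1r15a* (chr7:45526219-45526518, minus strand) held it at -220, a GATA site at -190 and the cyclic AMP element at -12. The windows of *Eif2ak1*, *Eif2ak3*, *Eif2ak4* and *Eif2s2* held none of these letters, and no window of the 7 genes held the C/EBP-ATF letters. A match describes the sequence and is not a binding site shown by these data. A missing match does not show that a factor, ATF4 among them, cannot bind there through other letters.
Eif2ak2 promoter: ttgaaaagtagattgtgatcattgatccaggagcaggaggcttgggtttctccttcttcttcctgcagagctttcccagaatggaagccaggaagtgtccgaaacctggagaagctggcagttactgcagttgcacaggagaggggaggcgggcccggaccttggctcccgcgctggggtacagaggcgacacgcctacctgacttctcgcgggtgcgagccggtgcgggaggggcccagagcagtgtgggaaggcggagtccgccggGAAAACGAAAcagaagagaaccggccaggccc
Eif2s1 promoter: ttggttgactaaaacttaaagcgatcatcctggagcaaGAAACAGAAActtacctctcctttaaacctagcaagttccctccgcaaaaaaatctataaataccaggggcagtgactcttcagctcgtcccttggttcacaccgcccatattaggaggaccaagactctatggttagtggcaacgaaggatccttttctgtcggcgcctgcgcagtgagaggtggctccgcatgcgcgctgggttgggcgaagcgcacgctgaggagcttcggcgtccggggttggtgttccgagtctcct
Ppp1r15a promoter: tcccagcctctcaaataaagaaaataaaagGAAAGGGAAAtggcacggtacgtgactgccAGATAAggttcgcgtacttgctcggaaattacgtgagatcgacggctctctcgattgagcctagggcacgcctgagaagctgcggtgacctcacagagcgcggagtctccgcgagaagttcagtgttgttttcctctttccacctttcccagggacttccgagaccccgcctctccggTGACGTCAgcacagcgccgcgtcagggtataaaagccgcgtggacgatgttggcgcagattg

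The libraries held 9906783 to 20157768 counts (median 16492116.5). *Abcb10* itself, the gene targeted, was lower in the clone at each day (log2 fold change -0.68, -1.54 and -2.54 at days 0, 2 and 5, edgeR adjusted p = 1.16e-07, 0.000551 and 5.51e-08), and a small edit need not remove the mRNA. Several libraries stood apart within their groups and matter below. WT replicate 5 at day 5 summed to 2623 CPM (counts scaled to the size of the library) over 10 genes of the ATF4 branch, against 688 to 871 in WT replicates 1 to 4, and Abcb10-null replicate 2 at day 2 summed to 967 against 2266 to 4553. WT libraries of day 2 fell into replicates 1 and 2 (chi-square per degree of freedom 6.78 between them) and replicates 3 to 5 (17.3 to 20.9 among them, 76.8 to 88.1 across). Abcb10-null libraries of day 2 were divided too, into replicates 2 and 5 (54.8 between them) and replicates 1, 3 and 4 (10.9 to 40.2 among them, 93.6 to 140.5 across). The day 2 differences thus rest on divided groups in both lines. WT libraries of day 5 were uneven as well, with 6.48 to 11.6 among replicates 1, 3 and 4. Against these, replicate 2 had 41.2 to 76.9 and replicate 5 had 69.4 to 84.8, with 140.2 between replicates 2 and 5. Pairs of Abcb10-null libraries of day 5 had 24.2 to 61.9. The day 5 differences thus rest on an uneven WT group. Erythroid markers, a list of 10 genes with the globins among them, were present throughout. At day 0 their sum ran from 1880.0 to 2146 CPM in WT and from 2005 to 2181 in Abcb10-null, while of 9 tested 1 was higher in Abcb10-null and 4, *Alas2* and 3 globin genes, were lower. At day 2 it ran from 3064 to 3973 in WT and from 1858 to 2744 in Abcb10-null, where 6 of 10 were lower (median log2 fold change -0.98). At day 5 it ran from 10750.0 to 23800.0 in WT, with replicate 5 lowest and the others at or above 19360, and from 4977 to 6521 in Abcb10-null, where 10 of 10 were lower in the clone (median log2 fold change -1.75). The sum of 5 macrophage markers ran from 0.962 to 14.8 CPM over all libraries, that of 5 lymphoid markers from 0 to 6.96 and that of 5 fibroblast markers from 0 to 7.37. Globin transcripts were depleted before sequencing, so the globin counts in the erythroid sums and calls are what depletion left. The part of the erythroid difference in the results below was not tested, and in bulk RNA a change in the share of cells of one state and a change in the RNA per cell cannot be told apart.

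Against WT, the Abcb10-null cells began with more PKR mRNA and less mRNA of *Eif4ebp1*, *Ppp1r15a*, *Eif2s2* and *Eif2ak1*, and after 5 days in DMSO they held more *Eif4ebp1*, *Ppp1r15a* and *Eif2s2* and less *Eif2ak1*, *Eif2ak2* and *Ppp1r15b*. All 9 genes passed the filter on low counts in each of the 11 comparisons. A gene was called where edgeR's quasi-likelihood test gave a Benjamini-Hochberg adjusted p under 0.05 over all genes tested, and log2 fold changes are given ± their standard error and levels ± the SD over the 5 libraries of a group. At day 0, 1 member was higher and 4 were lower in Abcb10-null, 5 of 9, where 36.0% of all genes tested were called. At day 2, 3 were higher and 2 lower, 5 of 9, with 31.8% called overall. At day 5, 3 were higher and 3 lower, 6 of 9, with 37.6% called overall. These counts stand against a background in which a large share of all transcripts differed between the lines. With all 30 libraries in one fit, *Eif2ak2* alone kept its call at day 0, and the other members called there had adjusted p from 0.277 to 0.435 by edgeR. The plots of the levels in each library and of the genotype differences by day show all 9 genes.

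**Figure D1:**
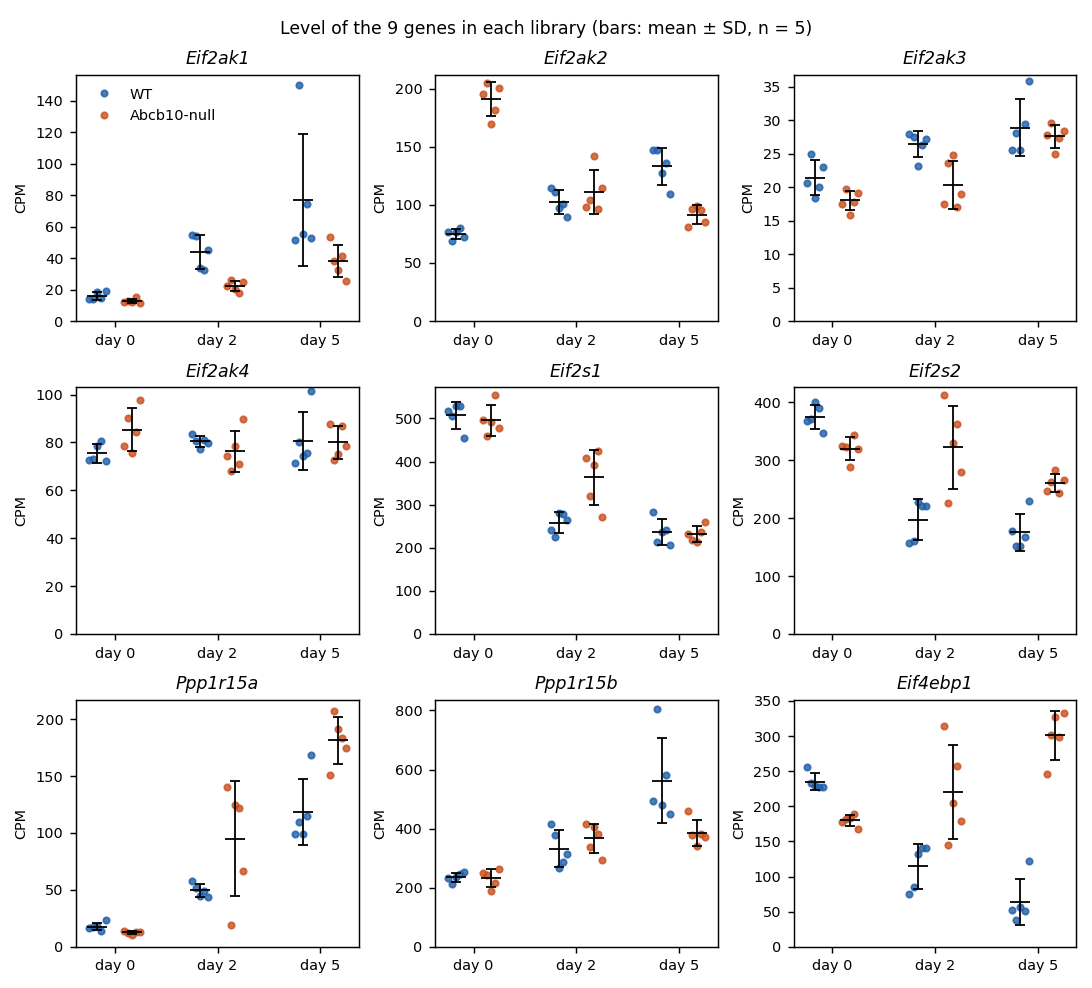
Level of each of the 9 genes in CPM (vertical axis, from 0) in every library, by day in DMSO, with WT in blue and Abcb10-null in orange; black marks give the group mean ± SD of 5 libraries. *Eif4ebp1* separates the genotypes most at day 5 (63.8 ± 33.2 CPM in WT and 301 ± 34.6 in Abcb10-null), *Eif2ak2* at day 0, and *Eif2ak4* has group means between 75.4 and 85.3 CPM.

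**Figure D2:**
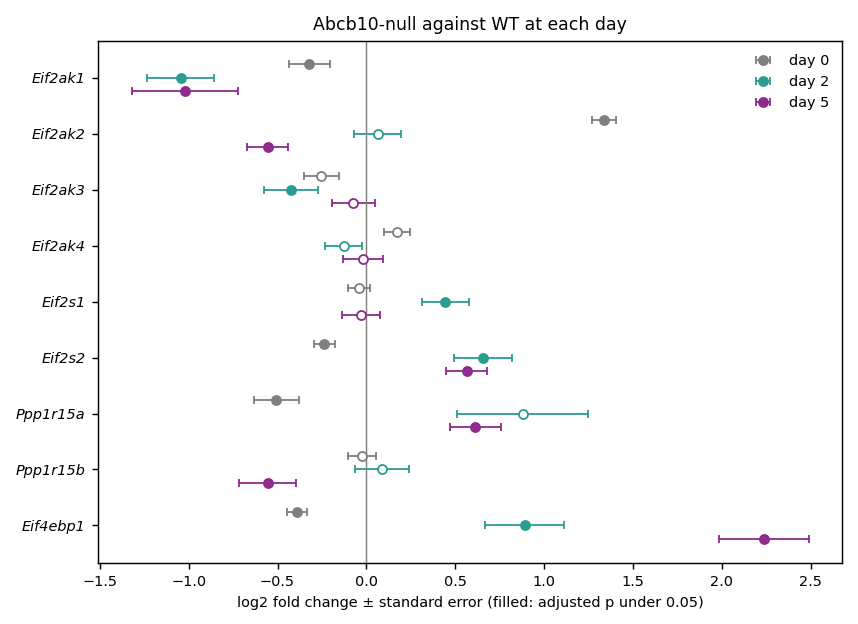
Genotype difference, as log2 of Abcb10-null over WT (horizontal axis, bars of 1 standard error) for the 9 genes at day 0 (grey), day 2 (green) and day 5 (purple), 5 libraries a group; filled points passed the test. *Eif4ebp1* goes from -0.39 at day 0 to 2.24 at day 5, and *Eif2ak2* from 1.34 to -0.56.

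*Eif2ak1* (ENSMUSG00000029613, chromosome 5, 143817788 to 143904251, plus strand), the gene of the heme-regulated kinase HRI, was lower in Abcb10-null than in WT cells at each day and rose with DMSO in both. At day 0 it stood at 14.1, 13.8, 18.3, 14.4 and 18.98 CPM in the 5 WT libraries and at 12.4, 12.7, 12.4, 15.1 and 11.7 in the Abcb10-null libraries. The groups overlapped in 1 Abcb10-null library, and the difference was small (log2 fold change -0.32 ± 0.12, adjusted p = 0.0384 by edgeR). At day 2 the WT libraries had 55.0, 54.2, 34.0, 32.2 and 44.9 CPM and the Abcb10-null libraries 22.3, 25.9, 20.2, 17.8 and 24.6. Every Abcb10-null library then lay below every WT library, with about 0.485 times the WT level (log2 fold change -1.05 ± 0.19, adjusted p = 0.00328 by edgeR). At day 5 the values were 51.2, 149.8, 55.6, 74.4 and 52.5 CPM in WT and 53.4, 37.9, 32.6, 41.4 and 25.8 in Abcb10-null. WT replicate 2, at 149.8 CPM, was far above its group, while Abcb10-null replicate 1 fell inside the WT range. The day 5 difference (log2 fold change -1.02 ± 0.30, adjusted p = 0.0164 by edgeR) shrank without that WT library (-0.64, adjusted p = 0.018 by edgeR) and was still called. The day 0 call was lost without any 1 of 6 libraries (WT replicates 3 or 5, or Abcb10-null replicates 1, 2, 3 or 5, with adjusted p from 0.0639 to 0.0973 by edgeR). Of its exon bases, 8.59% overlap *Aimp2* and 3.03% *Ankrd61* on the other strand, and since the strand setting of the counting is not given in the sources used here, reads there could belong to either gene.

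*Eif2ak2* (ENSMUSG00000024079, chromosome 17, 78852564 to 78882573, minus strand), the gene of PKR and itself inducible by interferon, had the largest difference of the 9 genes between the lines before DMSO. At day 0 the WT libraries had 77.0, 69.1, 76.8, 80.3 and 72.7 CPM and the Abcb10-null libraries 196, 205, 169.8, 182 and 201. All Abcb10-null libraries lay above all WT libraries, at 2.53 times the WT level (log2 fold change 1.34 ± 0.068, adjusted p = 1.81e-11 by edgeR). At day 2 the values were 114, 111, 97.8, 101 and 89.3 CPM in WT and 98.0, 104, 142, 96.3 and 115 in Abcb10-null, and the groups overlapped (log2 fold change 0.063 ± 0.13, adjusted p = 0.741 by edgeR). At day 5 the order had turned, with 148, 147, 127, 136 and 109 CPM in WT and 80.8, 96.3, 99.5, 95.8 and 84.9 in Abcb10-null. All Abcb10-null libraries now lay below all WT libraries (log2 fold change -0.56 ± 0.11, adjusted p = 0.00209 by edgeR). Of the 18 genes tested in the interferon list, 17 were higher in Abcb10-null at day 0 (median 2.22). At day 2, 13 were higher and 1 lower (median 1.02), while *Eif2ak2* itself was not called. At day 5, 6 were higher and 1 lower (median 0.068), while *Eif2ak2* was lower. Summed over its 20 genes that list ran from 246 to 263 CPM in WT and from 932 to 1045 in Abcb10-null at day 0, and from 253 to 326 and 258 to 351 at day 5. *Adar*, whose product edits double-stranded RNA and so limits PKR, was also higher at day 0 (0.97 ± 0.094, adjusted p = 2.31e-07 by edgeR) and is named after its values were seen.

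*Eif2ak3* (ENSMUSG00000031668, chromosome 6, 70844515 to 70905245, plus strand), the gene of PERK, differed little between the lines. Its libraries ran from 18.4 to 25.04 CPM in WT and 15.9 to 19.7 in Abcb10-null at day 0 (log2 fold change -0.25 ± 0.10, adjusted p = 0.0547 by edgeR). That difference passed the test without WT replicate 1, 3 or 4 (adjusted p from 0.0219 to 0.0483 by edgeR) and by DESeq2 (adjusted p = 0.0448). At day 2 they ran from 23.2 to 27.9 and 17.03 to 24.8 CPM, with 3 Abcb10-null libraries below every WT library (log2 fold change -0.42 ± 0.15, adjusted p = 0.0462 by edgeR). This day 2 call was lost in 7 of 10 fits that left out 1 library, with WT replicates 1, 2, 4 or 5 or Abcb10-null replicates 1, 4 or 5 removed (edgeR adjusted p from 0.0724 to 0.12). At day 5 the ranges were 25.5 to 35.9 and 24.9 to 29.6 CPM (log2 fold change -0.074 ± 0.12, adjusted p = 0.656 by edgeR). Of its exon bases 8.05% overlap *Gm43292* on the other strand.

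*Eif2ak4* (ENSMUSG00000005102, chromosome 2, 118388618 to 118475234, plus strand), the gene of the amino acid sensor GCN2, was the one member called in none of the 11 comparisons, by edgeR or by DESeq2. By edgeR its unadjusted p was under 0.05 in 1 of the 11, Abcb10-null against WT at day 0 (unadjusted p = 0.0317). The libraries ran from 72.3 to 80.6 CPM in WT and 75.8 to 97.9 in Abcb10-null at day 0, from 77.3 to 83.6 and 68.0 to 89.8 at day 2 and from 71.3 to 101 and 72.5 to 87.5 at day 5. The interval of 2 standard errors around the day 5 difference was -0.24 to 0.21 on the log2 scale. At day 0 it was 0.024 to 0.32 (log2 fold change 0.17 ± 0.073, adjusted p = 0.0775 by edgeR), and without Abcb10-null replicate 3 that difference was called (0.21, adjusted p = 0.0302 by edgeR).

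Put on a scale that allows genes to be compared, CPM per kb of exon, the 4 kinase mRNAs summed to 31.2 ± 0.970 in WT and 54.0 ± 3.99 in Abcb10-null at day 0. In WT the sum was 43.0 ± 3.94 at day 2 and 55.2 ± 8.90 at day 5, while in Abcb10-null it was 39.3 ± 4.73 and 40.0 ± 2.28. *Eif2ak2* was the largest part in every group. Its share was 47.1 ± 1.68% in WT and 69.1 ± 1.27% in Abcb10-null at day 0, and 47.7 ± 6.13% and 44.9 ± 4.25% at day 5. The share of *Eif2ak1* went from 8.996 ± 1.35% through 17.9 ± 3.05% to 23.5 ± 8.17% in WT and from 4.21 ± 0.583% through 10.03 ± 1.65% to 16.7 ± 3.81% in Abcb10-null. The Abcb10-null shares of *Eif2ak1* lay below all WT shares at days 0 and 2 (7.74 to 12.01% against 13.98 to 20.5% at day 2) and overlapped them at day 5 (12.5 to 22.7% against 17.5 to 37.4%). A share also falls where another part of the sum is higher. At day 0 *Eif2ak2* was at 2.53 times the WT level in Abcb10-null, and *Eif2ak1* at 0.80 times with overlapping libraries. These sums and shares are descriptions of mRNA with no test, and say nothing of how much of each kinase protein was made or active.

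**Figure D3:**
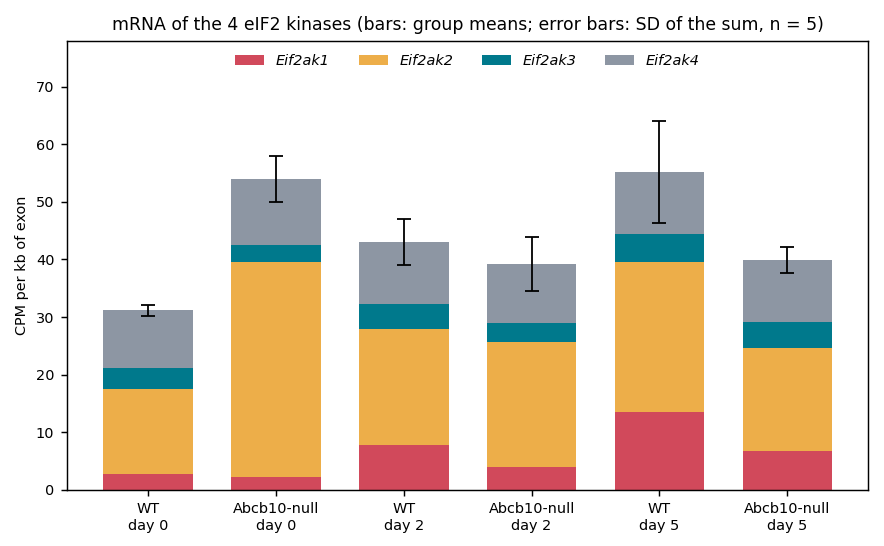
Level of the 4 eIF2 kinase mRNAs stacked in each group (vertical axis, CPM per kb of exon, from 0); colored parts are group means of 5 libraries and error bars the SD of the sum. *Eif2ak2* (yellow) is thickest in the Abcb10-null column of day 0 (69.1 ± 1.27% of the sum), and *Eif2ak1* (red) is thickest in the WT column of day 5 (23.5 ± 8.17%).

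*Eif2s1* (ENSMUSG00000021116, chromosome 12, 78861819 to 78887010, plus strand), which encodes the phosphorylated alpha subunit, differed between the lines only at day 2 by the test. At day 0 the libraries had 518, 506, 528, 528 and 455 CPM in WT and 496, 460.1, 492, 555 and 477 in Abcb10-null (log2 fold change -0.039 ± 0.062, adjusted p = 0.653 by edgeR). At day 2 they had 240.4, 226, 280.4, 278 and 265 and 408, 319.5, 392, 424 and 272. There 4 of 5 Abcb10-null libraries were above every WT library (log2 fold change 0.44 ± 0.13, adjusted p = 0.0233 by edgeR). The call was lost without WT replicate 1 or 2 or without Abcb10-null replicate 1, 3 or 4 (edgeR adjusted p from 0.0534 to 0.0653). At day 5 the values were 282, 213, 237, 241 and 206 CPM in WT and 232, 218, 214, 236 and 261 in Abcb10-null, and the groups overlapped (log2 fold change -0.032 ± 0.11, adjusted p = 0.836 by edgeR).

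*Eif2s2* (ENSMUSG00000074656, chromosome 2, 154871410 to 154892935, minus strand), the gene of the beta subunit, went from lower to higher in Abcb10-null. At day 0 WT libraries had 367, 371, 400.1, 390.1 and 348 CPM and Abcb10-null libraries 325, 322, 289, 343 and 320.4. The groups did not overlap, and the difference was modest (log2 fold change -0.24 ± 0.060, adjusted p = 0.00452 by edgeR). At day 2 the values were 158, 161, 229, 221 and 221 in WT and 413, 226, 331, 363 and 280.3 in Abcb10-null, with WT replicates 1 and 2 below the other WT libraries and Abcb10-null replicate 2 inside the WT range (log2 fold change 0.66 ± 0.17, adjusted p = 0.0114 by edgeR). At day 5 they were 178, 152, 151, 167 and 229 and 247, 262, 284, 244 and 266, with the Abcb10-null libraries above every WT library (log2 fold change 0.56 ± 0.12, adjusted p = 0.00218 by edgeR). The alpha and beta subunits sit together in eIF2, and the ratio of their mRNAs per kb was 1.84 ± 0.0557 in WT and 2.12 ± 0.148 in Abcb10-null at day 0, then 1.88 ± 0.381 and 1.22 ± 0.134 at day 5 (SD, n = 5 each).

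*Ppp1r15a* (ENSMUSG00000040435, chromosome 7, 45522916 to 45526268, minus strand), the stress-induced phosphatase subunit GADD34, was the member that rose most over 5 days in both lines. At day 0 it was at 16.6, 17.7, 17.98, 13.7 and 23.1 CPM in WT and 13.9, 12.3, 10.6, 13.4 and 12.8 in Abcb10-null. Of the Abcb10-null libraries 4 of 5 lay below every WT library (log2 fold change -0.51 ± 0.13, adjusted p = 0.00399 by edgeR). At day 2 WT libraries had 58.2, 51.6, 45.0, 48.6 and 44.0 CPM and Abcb10-null libraries 140.4, 19.4, 125, 122 and 67.0. Here 4 Abcb10-null libraries were above all WT libraries and replicate 2 was below them, and the difference was not called (log2 fold change 0.88 ± 0.37, adjusted p = 0.0833 by edgeR). Without that library it was (1.14, adjusted p = 0.000775 by edgeR). At day 5 the values were 99.1, 109.5, 99.4, 115 and 168 CPM in WT and 151, 207, 192, 183 and 175 in Abcb10-null. WT replicate 5, the library with the high ATF4 branch, was the only WT library to reach the Abcb10-null range (log2 fold change 0.61 ± 0.14, adjusted p = 0.00528 by edgeR), and without it the difference was 0.76, adjusted p = 0.000175 by edgeR. With all 30 libraries in one fit, the day 5 difference was no longer called (0.62, adjusted p = 0.0618 by edgeR) and the day 2 difference was (0.94, adjusted p = 0.00565 by edgeR). Of the 7 settings other than leaving out a library, 5 left the day 2 difference uncalled and the rest called it.

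**Figure D4:**
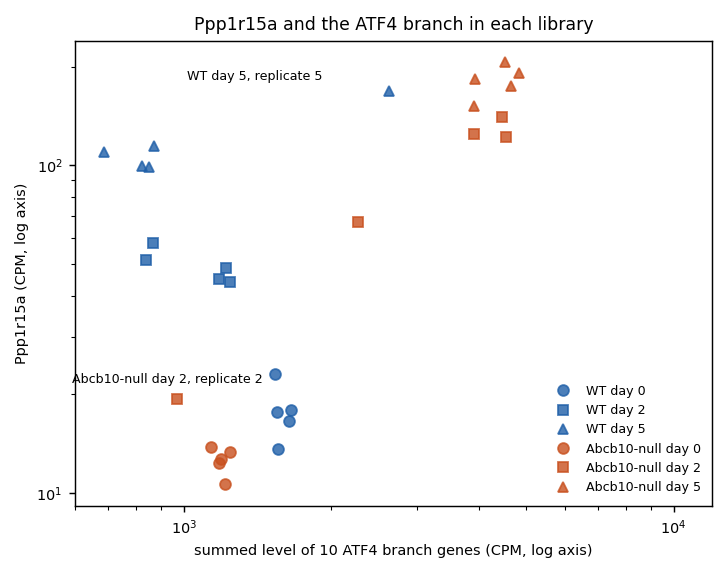
*Ppp1r15a* in CPM (vertical log axis) against the summed CPM of 10 ATF4 branch genes (horizontal log axis) in each of the 30 libraries, with WT in blue, Abcb10-null in orange and a symbol per day. WT replicate 5 of day 5 lies to the right of its group at 2623 CPM, and Abcb10-null replicate 2 of day 2 lies near the day 0 libraries at 967 CPM. In WT *Ppp1r15a* and the sum part over the days, and the most abundant genes weigh most in the sum. By gene, the 10 had a median log2 fold change of 0.52 in WT from day 0 to 5, with 2 called higher and 2 lower. Replicates 1 to 4 of day 5 have sums of 688 to 871 CPM with *Ppp1r15a* at 99.1 to 115. WT libraries of day 0 have sums of 1536 to 1656 CPM with *Ppp1r15a* at 13.7 to 23.1.

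*Ppp1r15b* (ENSMUSG00000046062, chromosome 1, 133131143 to 133139783, plus strand), the constitutive subunit CReP, overlapped in range at days 0 and 2 and was lower in Abcb10-null at day 5. At day 0 its libraries ran from 213 to 252 CPM in WT and 190.1 to 263 in Abcb10-null (log2 fold change -0.024 ± 0.079, adjusted p = 0.839 by edgeR), and at day 2 from 266 to 416 and 294 to 416 (log2 fold change 0.089 ± 0.15, adjusted p = 0.683 by edgeR). At day 5 they were at 492, 804, 481, 583 and 449 CPM in WT and 459, 377, 341, 381 and 371 in Abcb10-null. Only Abcb10-null replicate 1 reached the WT range (log2 fold change -0.56 ± 0.16, adjusted p = 0.0159 by edgeR), and the difference was -0.40, adjusted p = 0.0156 by edgeR without WT replicate 2, the highest library. Per kb of exon, the ratio of *Ppp1r15a* to *Ppp1r15b* mRNA was 0.144 ± 0.0258 in WT and 0.104 ± 0.0101 in Abcb10-null at day 0, and 0.425 ± 0.1701 and 0.911 ± 0.176 at day 5 (SD, n = 5 each). The Abcb10-null ratios at day 5 ran from 0.628 to 1.07 and the WT ratios from 0.259 to 0.713, with WT replicate 5 at the top of the latter. Of the *Ppp1r15b* exon bases 11.4% overlap *Gm26616* on the other strand.

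*Eif4ebp1* (ENSMUSG00000031490, chromosome 8, 27260329 to 27276674, plus strand), which encodes the cap-dependent repressor 4E-BP1, showed the largest genotype difference of the 9 genes, and it turned over the time course. At day 0 WT libraries had 256, 234, 229, 227 and 228 CPM and Abcb10-null libraries 177, 181, 184, 189 and 168. The clone was then lower in every library (log2 fold change -0.39 ± 0.058, adjusted p = 3.71e-05 by edgeR). At day 2 the values were 75.6, 84.4, 133, 141 and 140.2 in WT and 314, 144, 204, 258 and 179 in Abcb10-null. WT replicates 1 and 2 were well below the other WT libraries, and all Abcb10-null libraries were above all WT libraries (log2 fold change 0.89 ± 0.22, adjusted p = 0.0106 by edgeR). At day 5 WT libraries had 52.8, 37.9, 56.0, 50.6 and 122 CPM and Abcb10-null libraries 245, 302, 327, 299 and 333. The clone held 4.71 times the WT mRNA (log2 fold change 2.24 ± 0.25, adjusted p = 3.98e-05 by edgeR), with WT replicate 5, which also had the high ATF4 branch and the low erythroid sum, as the highest WT library. Without that library the difference was 2.59, adjusted p = 1.16e-07 by edgeR. The part of that library's other differences in its *Eif4ebp1* and *Ppp1r15a* levels was not tested.

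From day 0 to 5, 8 of the 9 genes were called in each line, as were most genes. No untreated culture was sampled at day 2 or day 5, so DMSO and days in culture cannot be told apart. In WT, 5 rose and 3 fell from day 0 to 2, with 62.2% of all genes tested called, 4 rose and 1 fell from day 2 to 5 (33.4%) and 5 rose and 3 fell from day 0 to 5 (71.2%). In Abcb10-null, 3 rose and 2 fell from day 0 to 2 (43.1%), 2 rose and 1 fell from day 2 to 5 (31.0%) and 5 rose and 3 fell from day 0 to 5 (67.2%). Comparisons within a line share libraries, so these counts are not independent of each other. Some calls rested on single libraries. In WT from day 2 to 5, the fall of *Eif4ebp1* (adjusted p = 0.0432 by edgeR) was called in 3 of 10 fits without 1 library. The rise of *Eif2ak1* (adjusted p = 0.0439 by edgeR) was called in 5 of 10. The rise of *Eif2ak3* was called in 6 of 10 such fits in WT from day 0 to 2 and in 3 of 10 in Abcb10-null from day 2 to 5. From day 0 to 5, *Ppp1r15a* rose in WT (log2 fold change 2.73, adjusted p = 1.66e-08 by edgeR) and in Abcb10-null (3.86, adjusted p = 1.93e-13 by edgeR), and *Eif2ak1* rose in both (2.27, adjusted p = 9.35e-06 by edgeR and 1.58, adjusted p = 2.64e-07 by edgeR). *Eif2s1*, the kinases' substrate, fell alongside in both lines (-1.11, adjusted p = 4.41e-07 by edgeR and -1.09, adjusted p = 5.94e-09 by edgeR). *Eif2ak3* and *Ppp1r15b* rose in both, by 0.43 and 1.26 in WT and by 0.62 and 0.74 in Abcb10-null (edgeR adjusted p at most 0.00831). *Eif2s2* fell in both, by 1.10 on the log2 scale in WT and by 0.29 in Abcb10-null (edgeR adjusted p = 1.5e-06 and 0.00265).

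**Figure D5:**
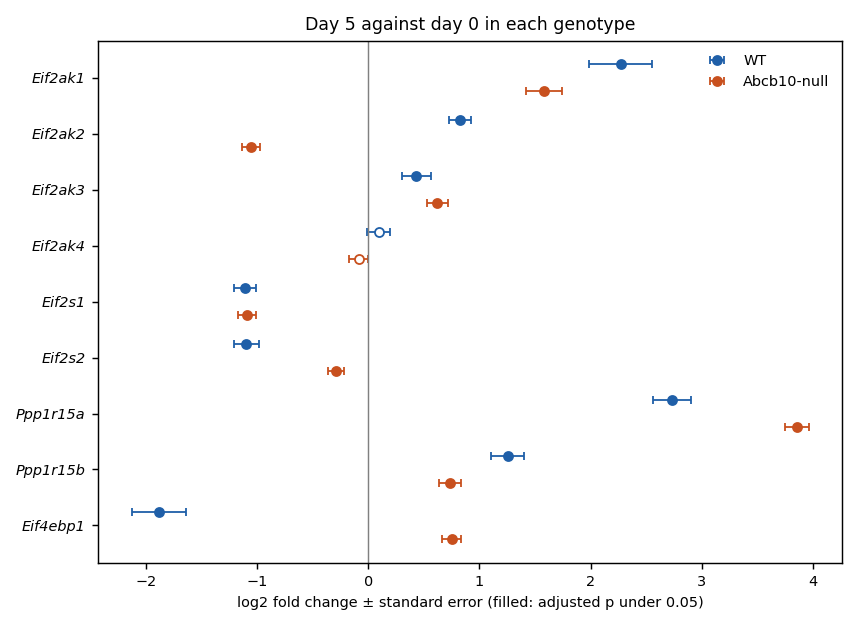
Log2 fold change of day 5 against day 0 (horizontal axis, bars of 1 standard error) for the 9 genes in WT (blue) and Abcb10-null (orange), 5 libraries a group; filled points passed the test. The points of *Eif4ebp1* (-1.88 and 0.75) and *Eif2ak2* (0.83 and -1.06) lie on opposite sides of 0, and both points of *Eif2ak4* are open.

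A pair of genes went opposite ways in the lines. *Eif4ebp1* fell in WT from day 0 to 5 (log2 fold change -1.88, adjusted p = 1.35e-05 by edgeR) and rose in Abcb10-null (0.75, adjusted p = 1.11e-06 by edgeR), and *Eif2ak2* rose in WT (0.83, adjusted p = 6.23e-06 by edgeR) and fell in Abcb10-null (-1.06, adjusted p = 1.49e-08 by edgeR). The term for genotype and day tests such differences directly: a positive value means a larger gain, or smaller loss, in Abcb10-null. From day 0 to 5 it was called for 5 of the 9 genes, 3 positive and 2 negative, where 31.5% of all genes were called. It was 2.64 ± 0.27, adjusted p = 1.77e-07 by edgeR for *Eif4ebp1*. *Eif2ak2* had -1.88 ± 0.13, adjusted p = 7.08e-10 by edgeR. The phosphatase subunits parted, with 1.13 ± 0.20, adjusted p = 0.000149 by edgeR for *Ppp1r15a* against -0.51 ± 0.19, adjusted p = 0.0386 by edgeR for *Ppp1r15b*. The *Ppp1r15b* term was lost in 12 of 20 fits without 1 library (edgeR adjusted p from 0.0554 to 0.0776). *Eif2s2* lost less of its mRNA in Abcb10-null (0.82 ± 0.13, adjusted p = 6.21e-05 by edgeR), whereas the term of its partner *Eif2s1* was 0.023 ± 0.12, adjusted p = 0.907 by edgeR.

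From day 0 to 2 the term was called for 6 of the 9 genes, 4 positive and 2 negative (22.8% of all genes). *Ppp1r15a* had 1.44 ± 0.42, adjusted p = 0.0182 by edgeR, *Eif4ebp1* 1.33 ± 0.25, adjusted p = 0.0012 by edgeR and *Eif2s2* 0.94 ± 0.19, adjusted p = 0.00186 by edgeR. *Eif2s1* was called here (0.53 ± 0.15, adjusted p = 0.0164 by edgeR) but not to day 5: its fall was slower in Abcb10-null by day 2 and the lines met by day 5. *Eif2ak2* had -1.22 ± 0.14, adjusted p = 8.86e-06 by edgeR and *Eif2ak1* -0.67 ± 0.22, adjusted p = 0.0305 by edgeR. The *Eif2ak1* term was lost in 6 of 20 fits without 1 library (WT replicates 1 or 2 of day 0 or of day 2, or Abcb10-null replicate 4 of either day, edgeR adjusted p from 0.0505 to 0.0592), and from day 0 to 5 it was -0.68 ± 0.34, adjusted p = 0.134 by edgeR. That longer term was -0.28 without WT replicate 2 of day 5 (adjusted p = 0.383 by edgeR), and it was called with all genes of at least 1 count kept (-0.66, adjusted p = 0.0198 by edgeR).

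The genes around these 9 in the pathway were counted in lists for Abcb10-null against WT, beside medians over all genes tested of -0.002, -0.002 and -0.016 (log2 fold change) at days 0, 2 and 5. Upstream of the kinases, in a list of sensors, chaperones and inhibitors, 1 of 10 were higher and 3 lower at day 0, 2 of 10 were higher and 3 lower at day 2 and 3 of 10 were higher at day 5 (median 0.17). The genes higher at day 5 were *Impact* (log2 fold change 1.22 ± 0.16, adjusted p = 0.000108 by edgeR), whose product inhibits GCN2, *Hspa5* (0.76 ± 0.20, adjusted p = 0.0105 by edgeR), the chaperone BiP that restrains PERK, and *Dnajc3* (0.56 ± 0.10, adjusted p = 0.000652 by edgeR), a co-chaperone known as an inhibitor of PKR and PERK and named after its values were seen. *Impact* was at 44.6 ± 7.36 CPM in WT and 104 ± 22.7 in Abcb10-null at day 5. *Hspa5* had been lower in Abcb10-null at days 0 and 2 (-0.35 and -0.42, edgeR adjusted p = 5e-05 and 0.0325).

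Among eIF2 and eIF2B partners, 2 of 14 were higher and 5 lower at day 0, 4 of 14 were higher at day 2 and 4 of 14 were higher and 2 lower at day 5 (median 0.20). The eIF2B subunits *Eif2b3* (log2 fold change 0.91 ± 0.14, adjusted p = 0.000365 by edgeR) and *Eif2b1* (0.71 ± 0.15, adjusted p = 0.00245 by edgeR) were highest against WT at day 5, and *Eif5b*, the subunit-joining factor, was lowest against WT (-1.01 ± 0.23, adjusted p = 0.00375 by edgeR). *Eif5b* was already lower at day 0 (-0.92 ± 0.12, adjusted p = 1.23e-05 by edgeR) and had 0.028 ± 0.19 (adjusted p = 0.92 by edgeR) at day 2. *Eif2s3y* was lower at day 5 too (-0.33 ± 0.11, adjusted p = 0.0258 by edgeR); its reads may be shared with its near-identical partner *Eif2s3x*, so that both values are uncertain. Of the 3 catalytic subunits of protein phosphatase 1, 1 was higher at day 0 and 2 at day 2. *Ppp1cb*, named after its values were seen, was higher at both days (0.50 ± 0.12, adjusted p = 0.00415 by edgeR and 0.64 ± 0.18, adjusted p = 0.0185 by edgeR) and had 0.045 ± 0.15, adjusted p = 0.835 by edgeR at day 5.

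Around 4E-BP1, the cap-binding complex list had 1 gene higher and 2 lower at day 0, 2 higher and 4 lower at day 2, and 3 of 13 genes higher and 2 lower at day 5 (median 0.001). *Eif4e*, the cap-binding protein that 4E-BP1 holds, was higher (0.58 ± 0.10, adjusted p = 0.00058 by edgeR), as were the helicase *Eif4a1* (0.44 ± 0.14, adjusted p = 0.0216 by edgeR) and its cofactor *Eif4h* (0.44 ± 0.12, adjusted p = 0.0144 by edgeR), the latter named after its values were seen. *Eif4ebp2*, the paralog of *Eif4ebp1*, was lower (-1.02 ± 0.35, adjusted p = 0.0353 by edgeR), opposite in direction to *Eif4ebp1*, and the eIF4E transporter *Eif4enif1* was lower too (-0.49 ± 0.15, adjusted p = 0.0227 by edgeR). Of the list for mTORC1, the kinase complex that releases 4E-BP1 from eIF4E, 5 of 22 were higher and 5 lower at day 0, 1 of 22 were higher and 6 lower at day 2 and 4 of 22 were higher and 7 lower at day 5 (median -0.15). Those highest against WT at day 5 were the mTORC1 inhibitors *Sesn2* (1.77 ± 0.37, adjusted p = 0.00235 by edgeR) and *Ddit4* (1.49 ± 0.14, adjusted p = 1.07e-05 by edgeR), and those lowest were *Castor2* (-1.95 ± 0.48, adjusted p = 0.0063 by edgeR), a relative of the arginine sensor CASTOR1, and *Sesn3* (-1.52 ± 0.31, adjusted p = 0.00231 by edgeR). *Castor2* was at 4.75 ± 3.27 CPM in WT and 1.25 ± 0.552 in Abcb10-null at day 5.

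Downstream of eIF2 phosphorylation, the 10 genes of the ATF4 branch were compared between the lines. At day 0, 5 of 10 were lower in Abcb10-null, at day 2, 9 were higher (median 2.04), and at day 5, 10 were higher (median 1.81). *Ppp1r15a* and *Eif4ebp1* also went from lower to higher against WT. Within WT they did not move together with the sum of the list, in which its most abundant genes weigh most. The sum was 1536 to 1656 CPM at day 0 and 688 to 871 in replicates 1 to 4 of day 5 (2623 in replicate 5). Over these days *Ppp1r15a* rose and *Eif4ebp1* fell in WT. By gene, 2 of the 10 were higher and 2 lower in WT from day 0 to 5 (median log2 fold change 0.52). From day 0 to 2, 1 was higher and 7 lower (median -0.46), and from day 2 to 5, 4 were higher and 0 lower (median 0.83). Between the lines, *Atf4* itself, the factor translated when eIF2 is phosphorylated, had log2 fold changes of -0.48, 1.00 and 1.44 at days 0, 2 and 5 (edgeR adjusted p = 1.44e-06, 0.012 and 0.000752). Its target *Ddit3*, which encodes CHOP, an activator of *Ppp1r15a*, had -0.38, 2.75 and 1.77 (edgeR adjusted p = 0.000108, 0.00421 and 0.00604). *Chac1*, a glutathione-degrading target, had the largest value of the list at day 5 (4.27 ± 0.66, adjusted p = 0.000365 by edgeR), followed by *Trib3* (3.07 ± 0.79, adjusted p = 0.00894 by edgeR). This list was put together with results of these libraries known, so its direction is no independent evidence.

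Among interferon-stimulated genes, a class that *Eif2ak2* belongs to though the list leaves it out, *Irf7*, a transcription factor of the response, had 4.77 ± 0.18, adjusted p = 1.33e-13 by edgeR at day 0 and -0.11 ± 0.20, adjusted p = 0.69 by edgeR at day 5. *Isg15*, an antiviral ubiquitin-like modifier, had 3.84 ± 0.18, adjusted p = 7.56e-12 by edgeR at day 0 and 1.48 ± 0.41, adjusted p = 0.0135 by edgeR at day 5, and *Ddx58*, the RNA sensor RIG-I, had 1.28 ± 0.12, adjusted p = 9.43e-06 by edgeR at day 5.

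In levels per kb of exon, the 9 genes at day 0 had the repressor and the eIF2 subunits at the top and PERK and HRI at the bottom. In WT the means were 107 CPM per kb for *Eif4ebp1*, 102 for *Eif2s1*, 55.5 for *Eif2s2* and 42.1 for *Ppp1r15b*, then 14.7 for *Eif2ak2*, 10.1 for *Eif2ak4*, 6.06 for *Ppp1r15a*, 3.55 for *Eif2ak3* and 2.81 for *Eif2ak1*. Neighbours in that order overlapped only at its ends, between *Eif4ebp1* and *Eif2s1* and between *Eif2ak3* and *Eif2ak1*. At day 5 the order differed by line. In WT *Ppp1r15b* was highest (100.4) with no overlap, and below it each neighbour overlapped the next from *Eif2s1* through *Ppp1r15a*, *Eif4ebp1*, *Eif2ak2*, *Eif2s2* and *Eif2ak1* to *Eif2ak4*. In Abcb10-null *Eif4ebp1* was highest (137) with no overlap, followed by *Ppp1r15b* (69.0), *Ppp1r15a* (61.8) and *Eif2s1* (46.8), of which *Ppp1r15a* overlapped both its neighbours. *Eif2ak3* had the lowest mean in both lines at day 5, and in Abcb10-null its libraries overlapped those of *Eif2ak1*.

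As a description of patterns, log2 CPM of each member was correlated with that of 12152 genes over the 30 libraries, which share 6 groups and so are not independent points. The gene most like *Eif4ebp1* was *Krtcap2* (r = 0.979), and that pair also moved together within groups (r = 0.968 for deviations from the group means). The gene most like *Ppp1r15a* was *Slc6a9* (r = 0.972), that most like *Ppp1r15b* was *Atad2b* (r = 0.956) and that most like *Eif2ak1* was *Zfp871* (r = 0.980). For *Eif2s1* it was *Slc16a1* (r = 0.972), for *Eif2s2* *Serbp1* (r = 0.969), for *Eif2ak3* *Ets2* (r = 0.879), for *Eif2ak2* *Gm6548* (r = 0.920) and for *Eif2ak4* *Zfp956* (r = 0.659), the weakest of the 9. Among the members themselves the highest r was 0.864, between *Eif2ak1* and *Ppp1r15b*, and the lowest was -0.882, between *Eif2ak1* and *Eif2s1*. Within groups *Eif2s2* and *Eif4ebp1* had r = 0.876 for deviations from the group means, and r = 0.820 without removing them.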

How the data were processed

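RNA was depleted of ribosomal and globin transcripts before stranded libraries were made. The authors used STAR 2.6.1b to map reads to GRCm38 and counted reads per gene with featureCounts 1.6.3, per the submitters' processing notes, and deposited 1 table of raw counts for all 30 libraries. The strand setting of the counting is not given in the sources used here.

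From these counts, edgeR 4.0.16 (R 4.3.3) was used with TMM scaling, its filter on low counts and the quasi-likelihood test, on the 10 libraries compared or 20 for the genotype and day term, adjusting p by Benjamini-Hochberg across every gene in the fit and calling genes under 0.05. The standard error is the log2 fold change over the root of F. Levels are CPM with TMM over all 30 libraries, and per kb of exon from GENCODE M21. Of 54532 genes, 9219 had no count, and 37 identifiers outside the annotation held 0.0116% of counts. The scripts were tested on simulated data, drawn for each library on its own and so without divided groups. The changed genes were taken from those above a floor of expected counts, and were far fewer than the genes called in the real libraries. The rates below therefore need not hold for these data. For Abcb10-null against WT at day 5, edgeR recovered 71 of 100 changes of 1 on the log2 scale and 94 of 100 changes of 2. It called 9 of 12166 unchanged genes. For the genotype and day term to day 5 it recovered 60 and 94 of 100 and called 3 of 13529 unchanged genes. A gene not called may therefore still differ.

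The members and the gene lists were chosen with earlier results of these data known. Named were the 9 members, *Abcb10*, the gene most like each member, from each list the 2 called genes with the largest rise and the 2 with the largest fall in Abcb10-null against WT at day 5, and *Atf4*, *Ddit3*, *Chac1*, *Isg15* and *Irf7*. One gene that the rule names in the interferon list is not reported here. Alternatives were DESeq2 1.42.0, its size factors, 2 other filters, 1 fit of all 30 libraries, removal of 6140 globin, mitochondria-encoded and small RNA genes, a replicate block and leaving out each library. The p-values measure the spread between these libraries, which may in part be technical. No pair of replicates agreed within sampling noise.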

Additional observations from a re-analysis of the deposited data

Results flagged for a closer look

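In 4 of 54 sets of 5 libraries (9 genes in 6 groups) 1 library stood apart, by a gap to its neighbour of over 0.71 of the group's range, and chance alone gives about 1 in 20. *Eif2ak1* in WT replicate 2 of day 5 was at 149.8 CPM (gap 0.765 of the range). *Ppp1r15a* in WT replicate 5 of day 5 was at 168 CPM (0.773). *Eif4ebp1* was at 256 CPM in WT replicate 1 of day 0 (0.774) and at 122 CPM in WT replicate 5 of day 5 (0.784).

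The change over days differed between the genotypes for 6 genes from day 0 to 2, by the edgeR term for genotype and day. The log2 differences were -0.669 for *Eif2ak1*, -1.22 for *Eif2ak2*, 0.53 for *Eif2s1*, 0.94 for *Eif2s2*, 1.44 for *Ppp1r15a* and 1.325 for *Eif4ebp1*. From day 0 to 5 they differed for 5 genes, with -1.88 for *Eif2ak2*, 0.82 for *Eif2s2*, 1.13 for *Ppp1r15a*, -0.51 for *Ppp1r15b* and 2.64 for *Eif4ebp1*.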

How the results depend on the processing

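With all 30 libraries in one fit, 1 of the 9 genes was called for Abcb10-null against WT at day 0 (*Eif2ak2*) where the 10-library fit called 5, and all genes called fell from 4642 to 1584, of which 66.2% were higher against 54.9%. In the same fit 5 were called in Abcb10-null from day 2 to 5 against 3. The cause was not tested. Leaving out 1 library gave 3 to 6 genes called for Abcb10-null against WT at day 2, 2 to 5 in WT from day 2 to 5 and 2 to 5 in Abcb10-null from day 2 to 5. All genes called at day 2 fell from 4151 to 2744 without WT replicate 2 and to 2665 without Abcb10-null replicate 1. With all genes of at least 1 count kept, 62.9% of calls in WT from day 0 to 5 were higher against 51.3%, and the median of all genes there moved to 1.35.

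Signs turned only for differences near 0 that were not called. *Eif2ak4* in WT from day 2 to 5 was -0.050 with all genes of at least 1 count, -0.038 with at least 10 counts in every library, -0.000 in the 30-library fit, -0.009 with the replicate block, and -0.077 to 0.049 without 1 library. The *Eif2s1* term from day 0 to 5 was -0.001 by DESeq2, -0.019 with at least 10 counts and -0.028 to 0.085 without 1 library. Without 1 library the ranges were -0.072 to 0.041 for *Ppp1r15b* at day 0, -0.037 to 0.114 for *Eif2ak2* at day 2, -0.061 to 0.063 for *Eif2ak4* and -0.088 to 0.036 for *Eif2s1* at day 5, -0.006 to 0.124 for *Eif2ak4* in WT from day 0 to 5, and, in Abcb10-null, -0.060 to 0.149 for *Eif2s2* from day 0 to 2 and -0.005 to 0.120 for *Ppp1r15b* from day 2 to 5. Same-numbered libraries mostly did not deviate together (r from -0.26 to 0.43, over 0.1 in 8 of 75 pairs, and 6 of those 8 were between the day 2 libraries of the lines or between WT days 2 and 5), and no group pair had r over 0.1 at every number. These values cannot tell whether some same-numbered samples shared a culture or a batch. With the replicate block 5, 4 and 6 genes were called for Abcb10-null against WT at days 0, 2 and 5, against 5, 5 and 6. *Eif2ak3* lost its day 2 call (-0.44, adjusted p = 0.0692 by edgeR) and was called at day 0 (adjusted p = 0.0433 by edgeR), where *Eif2ak1* was not (adjusted p = 0.0706 by edgeR). Of the values of single genes under the settings other than leaving out a library, 659 kept direction and side of the threshold, 18 lost their call and 10 gained one.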
